A study of Homo sapiens with 9 samples.

Results

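The 54 genes described here serve the G2 phase and mitosis, the steps in which a cell that has copied its DNA condenses its chromosomes, attaches them to the spindle, separates them and divides. They were chosen by name as a functional group, and all 54 were found among the 58735 genes of the deposited table. A filter on low values left 53 of them for testing. The study cultured MDA-MB-231 cells, a long-established line from a human breast cancer, in 3 media, and each group held 3 messenger RNA libraries. In TIS CM the medium had been conditioned by MDA-MB-231 cells driven into therapy-induced senescence (TIS), a lasting arrest, by 100 ng/ml nocodazole over 72 h. In Cont CM it had been conditioned by MDA-MB-231 cells that were not senescent, and No CM was medium alone. All 9 libraries came from recipient cells labelled wild type, and no group received nocodazole directly according to the labels. The labels do not say whether drug was carried over with the TIS medium or whether the donors of Cont CM received a vehicle. Exposure to the media lasted 72 h by the sample labels and 48 h by the design text. Donor and recipient are the same line, so medium from other cell types was not compared.

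Entry into mitosis is driven by CDK1 bound to cyclin A or cyclin B, which CDC25 phosphatases switch on and which PLK1 and the Aurora kinases act beside. The spindle checkpoint holds the anaphase-promoting complex back until each chromosome is attached, after which the complex marks securin and cyclin B for destruction and the cell divides. Transcripts of these genes build up in S and G2 and are low in quiescent cells, because the DREAM complex keeps their promoters silent through CHR elements and B-MYB and FOXM1 later activate them. Many of these promoters also carry CCAAT boxes bound by NF-Y. In bulk RNA, fewer cells in G2 and mitosis and less transcript per such cell cannot be told apart.

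The 9 libraries held 32636708 to 39189036 fragments on genes. The line's mesenchymal markers VIM, CD44 and AXL averaged 365, 85.3 and 205 FPKM (fragments scaled by gene length and library depth) over the 9 libraries. The hormone receptor genes ESR1 and PGR averaged 0.00218 and 0.0012 FPKM, and EPCAM, an epithelial marker, averaged 8.54 FPKM. The leukocyte marker PTPRC averaged 0.0135 FPKM and the endothelial marker PECAM1 0.449 FPKM. On the first principal component of the tested genes, with 30.4% of the variance, the Cont CM libraries lay at 17.78, 15.07 and 11.88. The TIS CM libraries lay between -3.05 and -1.08 there, and the No CM libraries between -14.8 and -10.85. Within Cont CM, the library of replicate 1 stood apart. On the second principal component of the tested genes, with 17.6% of the variance, it lay at -19.32, while Cont CM replicates 2 and 3 lay at 13.44 and 7.62. Cont CM replicate 2 differed in another way, since its deviations from the mean followed GC content and gene length, which took up 17.7% of their variance there and 0.621% to 5.48% in the other 8 libraries. Nothing in the labels states that replicates were separate cultures, so a p-value here speaks of the spread among these libraries alone, and that spread may be technical.

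The promoters of 5 members show how the regulatory letters of this gene group are laid out. Each line gives the 150 bases just before the transcription start in RefSeq (build GRCh38.p14), read 5′ to 3′ along the gene, for CCNA2, CCNB1 and CCNB2, the mitotic cyclins, for PLK1, a kinase of mitotic entry, and for KIF20A, a kinesin of the dividing cell. Capitals mark CCAAT (or ATTGG, the same box on the other strand) and the CHR-like letters TTTGAA (or TTCAAA) and TTTAAA, the core of the CHR element with its usual variant.
CCNA2, chr4:121823884-121824033, minus strand: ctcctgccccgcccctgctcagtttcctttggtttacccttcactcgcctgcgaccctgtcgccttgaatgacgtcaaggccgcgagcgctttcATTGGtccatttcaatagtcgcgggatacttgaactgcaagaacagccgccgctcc
CCNB1, chr5:69167000-69167149, plus strand: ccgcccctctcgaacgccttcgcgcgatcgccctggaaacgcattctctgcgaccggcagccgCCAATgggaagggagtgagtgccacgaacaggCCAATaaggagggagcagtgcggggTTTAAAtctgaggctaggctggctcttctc
CCNB2, chr15:59104996-59105145, plus strand: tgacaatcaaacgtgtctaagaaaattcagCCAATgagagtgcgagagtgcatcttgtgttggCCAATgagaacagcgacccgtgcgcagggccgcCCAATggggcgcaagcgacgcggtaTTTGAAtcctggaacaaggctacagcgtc
PLK1, chr16:23678739-23678888, plus strand: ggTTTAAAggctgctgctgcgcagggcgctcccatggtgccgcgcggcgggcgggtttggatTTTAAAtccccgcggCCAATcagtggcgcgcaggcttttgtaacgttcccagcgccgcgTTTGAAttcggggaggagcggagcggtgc
KIF20A, chr5:138178962-138179111, plus strand: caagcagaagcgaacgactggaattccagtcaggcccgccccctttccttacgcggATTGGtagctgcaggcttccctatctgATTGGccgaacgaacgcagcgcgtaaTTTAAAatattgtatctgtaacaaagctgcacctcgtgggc

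Counting the first transcribed base as 0, CCNB2 had CCAAT boxes starting at -120, -87 and -54 in the stretch shown and TTTGAA at -29. CCNB1 had boxes at -87 and -55 and TTTAAA at -30, and KIF20A had boxes at -94 and -67 and TTTAAA at -41. PLK1 had 1 box at -73, with TTTGAA at -29 and TTTAAA at -148 and -88. In CCNA2 only a box at -56 matched the letters searched. Spellings of the CHR element other than TTTGAA and TTTAAA were not searched, so its absence from CCNA2 was not tested. In CCNB1, CCNB2 and KIF20A the CHR-like letters thus stood downstream of the boxes, between the last box and the start.

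RefSeq windows from 250 bases before to 50 bases after a start were at hand for 47 of the 54 members, 57 windows in all because some genes have several starts. CCAAT on either strand was present in 77.2% of the members' windows, against 34.6% of the 13660 windows of tested genes and 34.6% of all 35093 windows. TTTGAA on either strand was present in 64.9% of the members' windows, against 10.3% of the windows of tested genes and 15.2% of all windows. TTTAAA, which reads the same on both strands, was present in 29.8%, against 8.09% and 12.2%. A box together with either CHR-like element was found in 63.2% of the members' windows, against 6.48% for tested genes and 9.27% over all. Each motif was searched on its own, so matches of different motifs may share letters. The windows of 1 gene can overlap, and a match describes letters, not binding.

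Among the members, calls were mostly of lower levels in Cont CM, and by the members' median deviations TIS CM overlapped Cont CM and, in 1 library, No CM. Against No CM, limma called 16 of 53 tested members lower in Cont CM (30.2%) and 0 higher, while 37 did not pass. Over all 13912 tested genes the same comparison called 8.56% lower and 7.77% higher. The cyclin A and B2 genes, PLK1, all 4 genes of the chromosomal passenger complex and the phosphatase gene CDC25B were among the 16. Against Cont CM, 3 of 53 members were higher in TIS CM (5.66%), namely BIRC5, CCNA2 and CDC25B, 0 were lower and 50 did not pass, beside 2.9% called higher and 1.57% lower over all tested genes. Against No CM, 1 of 53 was lower in TIS CM (1.89%), CDC25B, 0 were higher and 52 did not pass, beside 0.453% lower and 0.403% higher over all tested genes.

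No member had an unadjusted p under 0.05 in the directions counted at 0, and voom on recovered fragments called none there. The changes were small. The widest was CDC25B, 1.35-fold lower in Cont CM than No CM. The 3 comparisons share libraries, so their counts are not independent of each other.

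Fold changes here are log2 differences on the log2(FPKM + 0.5) scale. In TIS CM against Cont CM the members' median was 0.07 (range -0.13 to 0.32), with 45 of 53 above 0 (84.9%, and 51.0% of all tested genes). For TIS CM against No CM the median was -0.05 (range -0.21 to 0.16), with 43 of 53 below 0 (81.1%, and 48.8% of all tested genes). In Cont CM against No CM it was -0.11 (range -0.44 to 0.05), with 50 of 53 below 0 (94.3%, and 50.2% of all tested genes). The median over all tested genes was 0.0 in each comparison. For TIS CM against Cont CM the deposited scaling gave 404 calls higher and 219 lower over all tested genes. Quantile normalization gave 310 and 273, and it gave the members a median of 0.04 with 35 of 53 above 0.

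Some members separated the groups without overlap of libraries. All 3 TIS CM libraries lay above all 3 Cont CM libraries for 13 members (24.5%), and for 15.0% of all tested genes. For 12 members (22.6%) all TIS CM libraries lay below all No CM libraries, as for 11.6% of all tested genes. All Cont CM libraries lay below all No CM libraries for 24 members (45.3%), and for 16.8% of all tested genes.

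**Figure D1:**
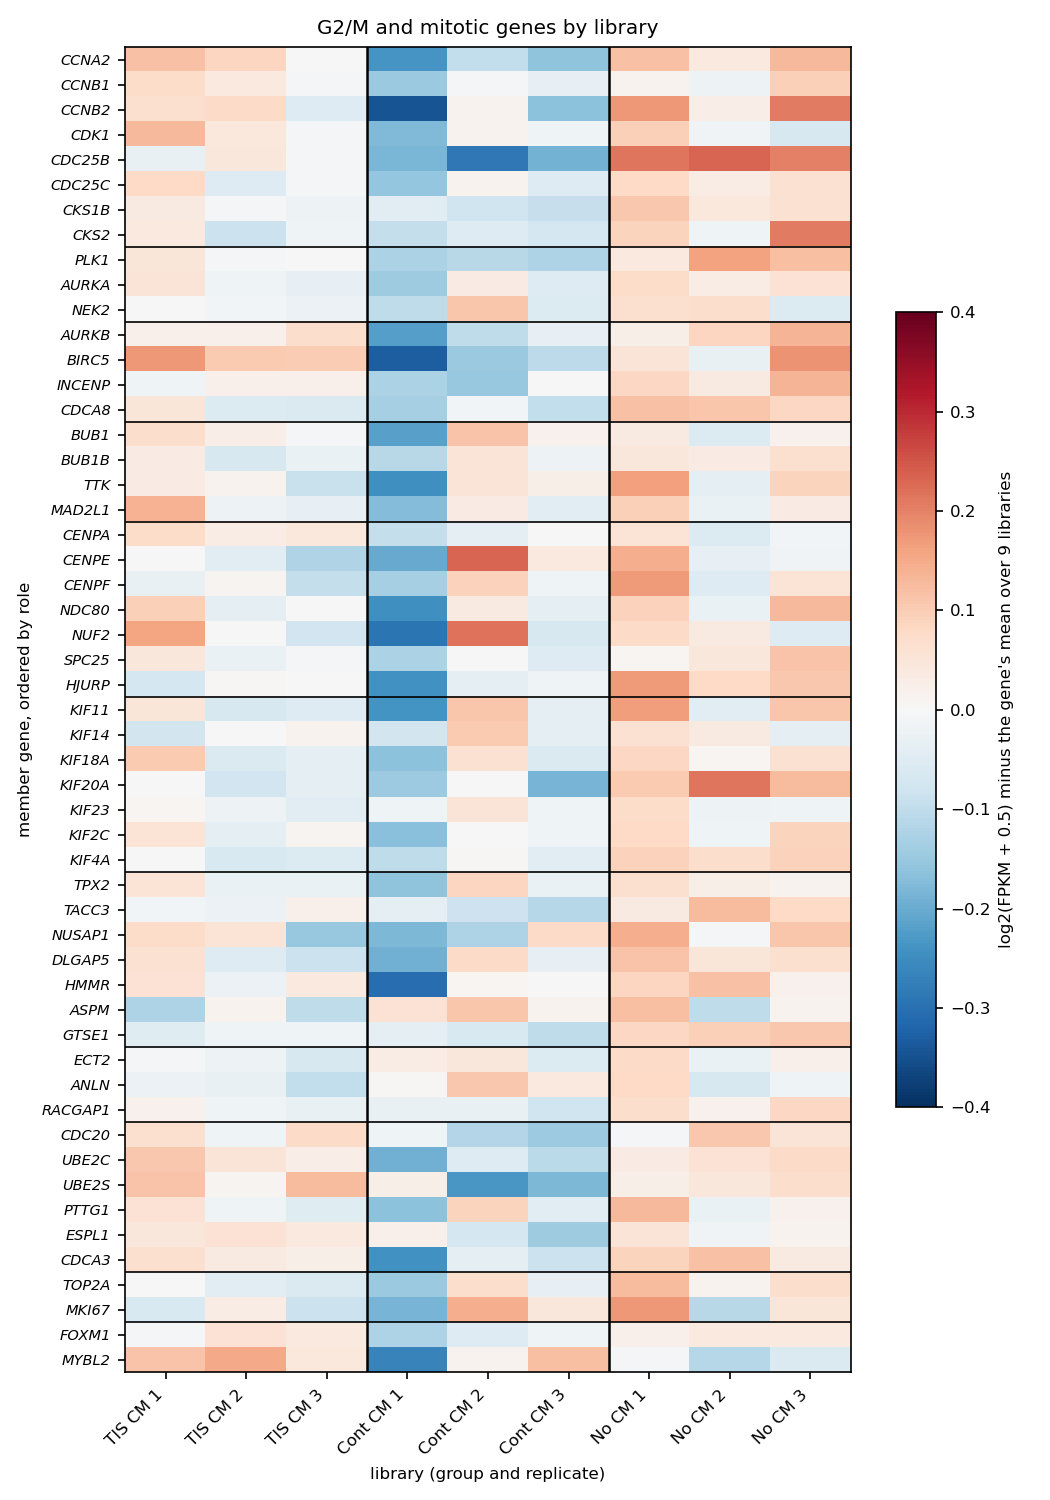
Each row is 1 of the 53 tested members, ordered by role with lines between roles, and each column 1 library, TIS CM at the left, then Cont CM and No CM. Colour gives log2(FPKM + 0.5) minus the gene's mean over 9 libraries. Cont CM replicate 1 is blue in most rows and was the lowest of the 9 libraries for 39 members, while the No CM columns are mostly red.

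Cont CM replicate 1 was the lowest of the 9 libraries for 39 of 53 members (73.6%), and for 21.5% of all tested genes. The members' median deviation from the 9-library mean was 0.05, -0.01 and -0.02 in TIS CM replicates 1 to 3, -0.15, 0.01 and -0.04 in Cont CM, and 0.08, 0.03 and 0.06 in No CM. Summed over the tested members, the level was 2612, 2517 and 2504 FPKM in TIS CM, 2299, 2505 and 2414 FPKM in Cont CM, and 2662, 2567 and 2654 FPKM in No CM. Cont CM replicate 1 had the lowest sum, and Cont CM replicate 2 came within the TIS CM range. The members took 0.957%, 0.942% and 0.924% of fragments in TIS CM, 0.87%, 0.946% and 0.911% in Cont CM, and 1.0%, 0.963% and 0.994% in No CM. All 3 No CM shares lay above all TIS CM and all Cont CM shares, and TIS CM and Cont CM overlapped.

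Without Cont CM replicate 1 the members' median was 0.03 for TIS CM against Cont CM, with 33 of 53 above 0 (62.3%, and 50.0% of all tested genes). For Cont CM against No CM it was -0.07, with 43 of 53 below 0 (81.1%, and 49.8% of all tested genes). Limma then called 4 members higher in TIS CM than Cont CM, the same 3 and UBE2S, beside 4.85% of all tested genes. It called 15 members lower in Cont CM than No CM (28.3%), beside 10.3% of all tested genes. Of these, 13 were among the original 16, and CDC20 and UBE2S were added. CCNB2, INCENP and KIF4A lost the call, with limma adjusted p of 0.0761, 0.0536 and 0.0599.

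**Figure D2:**
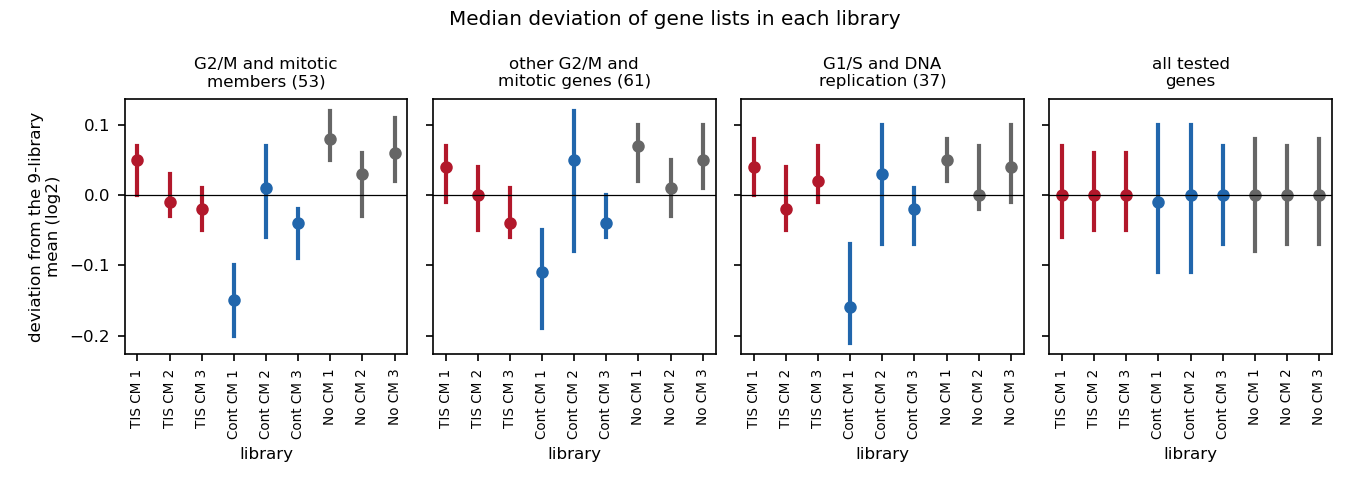
Points give the median deviation of a gene list from the 9-library mean in each library (log2 scale) and lines the middle 50% of its genes, for the members, 2 other cell cycle lists and all tested genes. The members lie at -0.15 in Cont CM replicate 1 and between 0.03 and 0.08 in the No CM libraries, while all tested genes lie at or near 0.

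Among the cyclins, CDK1 and its activators, 4 of 8 members were lower in Cont CM than No CM, beside 8.56% of all tested genes. These were CDC25B, CCNB2, CCNA2 and CKS1B. In TIS CM against Cont CM 2 of 8 were higher, beside 2.9% of all tested genes. CDC25B encodes a phosphatase that starts the activation of CDK1 in late G2 (chromosome 20, 3786772 to 3806121, hg38). It stood at 43.0, 45.3 and 43.8 FPKM in TIS CM, 38.6, 35.9 and 38.5 FPKM in Cont CM, and 51.0, 51.7 and 50.6 FPKM in No CM. The 3 groups did not overlap, with Cont CM lowest and TIS CM in between. The log2 fold change was -0.44 in Cont CM against No CM (SE 0.04, limma adjusted p = 0.000267), 0.22 in TIS CM against Cont CM (SE 0.04, limma adjusted p = 0.0217) and -0.21 in TIS CM against No CM (SE 0.04, limma adjusted p = 0.0444). Of the 9 fits that each left out 1 library, CDC25B was called in 9 for Cont CM against No CM, in 5 for TIS CM against Cont CM and in 2 for TIS CM against No CM.

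CCNA2 encodes cyclin A2, the partner of CDK2 and CDK1 in S and G2 (chromosome 4, 121816444 to 121823933). Its levels were 101, 98.9 and 93.3 FPKM in TIS CM, 78.9, 87.0 and 83.3 FPKM in Cont CM, and 101, 95.7 and 102 FPKM in No CM. Every TIS CM and No CM library lay above every Cont CM library, and TIS CM and No CM overlapped. It fell by 0.26 on the log2 scale in Cont CM against No CM (SE 0.05, limma adjusted p = 0.00829) and was higher by 0.23 in TIS CM than Cont CM (SE 0.05, limma adjusted p = 0.0346). The first call held in 9 of 9 omissions of a library and the second in 2 of 9.

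CCNB2, which encodes cyclin B2, stood at 25.3, 25.5 and 23.3 FPKM in TIS CM, 18.9, 24.4 and 21.5 FPKM in Cont CM, and 27.3, 24.6 and 28.0 FPKM in No CM. Cont CM replicate 1 was the lowest, and Cont CM replicate 2 came within the TIS CM range. Its log2 fold change in Cont CM against No CM was -0.30 (SE 0.09, limma adjusted p = 0.0464), and -0.21 without Cont CM replicate 1 (limma adjusted p = 0.0761), and the call held in 1 of 9 omissions. CKS1B, a small protein that binds CDKs, was at 58.4, 56.7 and 56.2 FPKM in TIS CM, 55.2, 53.9 and 53.4 FPKM in Cont CM, and 61.4, 58.7 and 59.4 FPKM in No CM. These groups did not overlap, over a narrow range, and the log2 fold change in Cont CM against No CM was -0.14 (SE 0.03, limma adjusted p = 0.0211), called in 5 of 9 omissions. Reads of CKS1B can be shared with processed copies, of which CKS1BP3 averaged 7.89 FPKM and CKS1BP2 1.27 FPKM, so its value is uncertain.

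CCNB1, the cyclin B1 gene, and CDK1 itself did not pass in any comparison. CCNB1 stood at 125, 122 and 118 FPKM in TIS CM, 107, 118 and 116 FPKM in Cont CM, and 120.0, 117 and 127 FPKM in No CM. CDK1 stood at 53.2, 50.0 and 48.4 FPKM in TIS CM, 42.9, 49.0 and 48.0 FPKM in Cont CM, and 51.9, 48.1 and 46.4 FPKM in No CM. Cont CM replicate 1 was the lowest library for both genes. For Cont CM against No CM the log2 fold changes were -0.09 for CCNB1 (95% interval -0.21 to 0.02) and -0.07 for CDK1 (-0.21 to 0.08). In TIS CM against Cont CM they were 0.10 (-0.01 to 0.21) and 0.12 (-0.03 to 0.26). The mitotic phosphatase gene CDC25C and the CDK-binding CKS2 did not pass either.

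**Figure D3:**
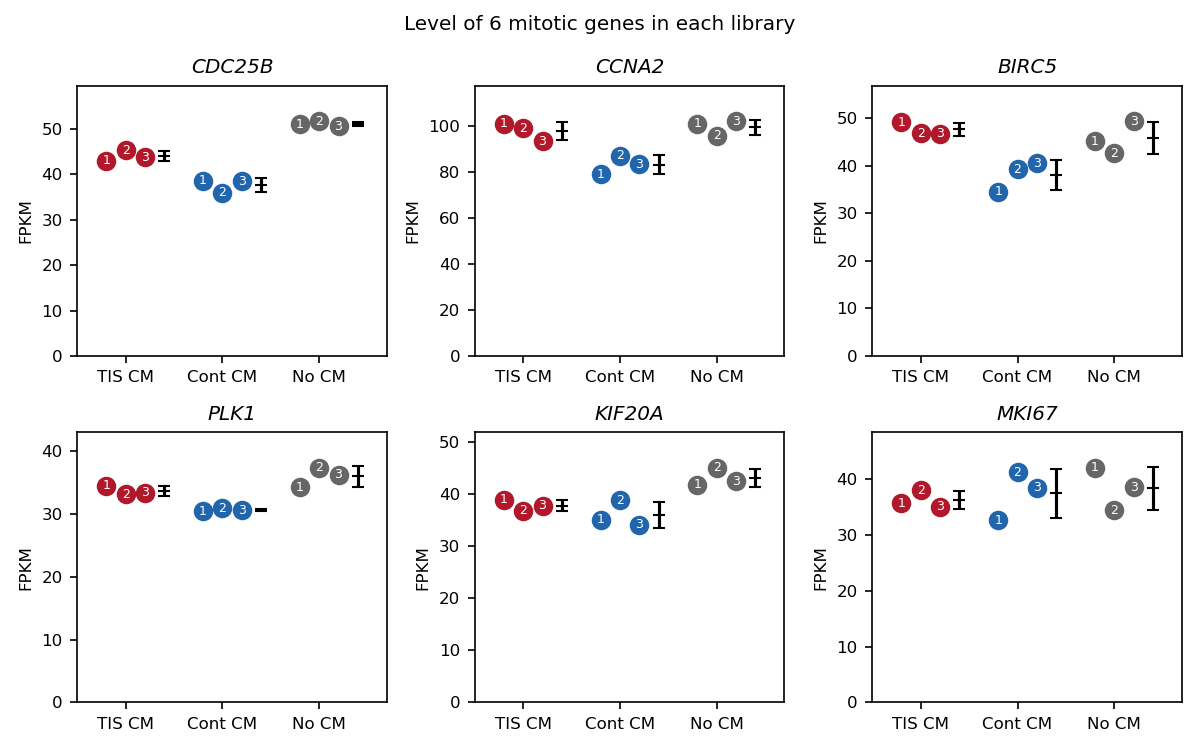
Each panel gives 1 gene in FPKM, with numbered points for replicates 1 to 3 of TIS CM (left), Cont CM and No CM and a bar for the mean ± SD (n = 3). CDC25B separates all 3 groups, CCNA2, BIRC5 and PLK1 are lowest in Cont CM, and MKI67 overlaps in all groups.

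Of the 3 mitotic kinases, PLK1 was lower in Cont CM than No CM (33.3%, and 8.56% of all tested genes). AURKA and NEK2, both centrosome kinases, did not pass. PLK1 (chromosome 16, 23677656 to 23690367) drives mitotic entry, centrosome maturation and cytokinesis. It stood at 34.5, 33.2 and 33.4 FPKM in TIS CM, 30.5, 30.9 and 30.6 FPKM in Cont CM, and 34.3, 37.4 and 36.3 FPKM in No CM. The Cont CM libraries lay within a narrow band below the other 6. The log2 fold change was -0.23 in Cont CM against No CM (SE 0.04, limma adjusted p = 0.00569), with adjusted p between 0.00699 and 0.0283 in the 9 omissions. It was 0.13 in TIS CM against Cont CM, which did not pass (SE 0.04, limma adjusted p = 0.0799). Of the exon bases of PLK1, 12.5% overlap genes on the opposite strand. The labels do not say whether reads were counted by strand.

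The chromosomal passenger complex corrects faulty chromosome attachments and later directs cytokinesis. All 4 of its members were lower in Cont CM than No CM, beside 8.56% of all tested genes. Without Cont CM replicate 1, 3 of 4 were called lower, beside 10.3% of all tested genes. INCENP lost the call there (limma adjusted p = 0.0536). Over the 9 omissions AURKB was called in 6, CDCA8 in 5, BIRC5 in 4 and INCENP in 3. After the part of each library's deviations that followed GC content and length was subtracted, CDCA8 alone of the 4 kept the call. BIRC5 encodes survivin, the subunit that brings the complex to centromeres (chromosome 17, 78214186 to 78225636). It stood at 49.2, 46.9 and 46.8 FPKM in TIS CM, 34.6, 39.3 and 40.5 FPKM in Cont CM, and 45.2, 42.7 and 49.4 FPKM in No CM. Every TIS CM and No CM library lay above every Cont CM library. It was higher by 0.32 on the log2 scale in TIS CM than Cont CM (SE 0.07, limma adjusted p = 0.0363), 1.25-fold and the widest difference among the members there, called in 4 of 9 omissions. In Cont CM against No CM its log2 fold change was -0.26 (SE 0.07, limma adjusted p = 0.0315).

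The kinase of the complex, AURKB, was at 35.4, 35.4 and 36.7 FPKM in TIS CM, 29.9, 32.5 and 34.1 FPKM in Cont CM, and 35.5, 37.1 and 38.4 FPKM in No CM. Its scaffold INCENP was at 23.8, 24.4 and 24.4 FPKM in TIS CM, 22.0, 21.6 and 24.1 FPKM in Cont CM, and 25.5, 24.7 and 26.5 FPKM in No CM. CDCA8, which encodes borealin, was at 49.8, 46.3 and 46.2 FPKM in TIS CM, 43.9, 47.8 and 44.9 FPKM in Cont CM, and 52.3, 52.0 and 51.0 FPKM in No CM. For these 3 genes Cont CM did not overlap No CM, while TIS CM overlapped Cont CM for INCENP and CDCA8. For Cont CM against No CM their log2 fold changes were -0.20, -0.18 and -0.18, with limma adjusted p of 0.0294, 0.0312 and 0.0221. For TIS CM against Cont CM they were 0.16, 0.10 and 0.06 and did not pass.

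None of the 4 spindle checkpoint members, the kinases BUB1 and TTK, BUB1B and MAD2L1, passed in any comparison. Limma and voom called 0 of 4 in each direction, and 0 had an unadjusted p under 0.05. Their log2 fold changes lay between 0.01 and 0.09 in TIS CM against Cont CM, between -0.09 and 0.03 in TIS CM against No CM, and between -0.13 and -0.03 in Cont CM against No CM. BUB1 spread widely within Cont CM, at 30.6, 38.6 and 36.1 FPKM (SD 4.06, against 1.02 in TIS CM and 1.23 in No CM). TTK and BUB1B also had their largest SD in Cont CM, 1.57 and 1.18 FPKM. MAD2L1 did not, with an SD of 1.66 FPKM in Cont CM and 1.69 FPKM in TIS CM.

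Of 7 centromere and kinetochore members, HJURP, the chaperone that places CENPA at centromeres, was called, lower in Cont CM than No CM (14.3%, and 8.56% of all tested genes). It stood at 23.0, 24.3 and 24.2 FPKM in TIS CM, 20.4, 23.6 and 23.9 FPKM in Cont CM, and 27.3, 25.6 and 26.1 FPKM in No CM. Both conditioned media lay below all No CM libraries and overlapped each other. The log2 fold change was -0.22 (SE 0.06, limma adjusted p = 0.0412) in Cont CM against No CM, and it was called in 3 of 9 omissions, those of the Cont CM libraries. It lost the call without any 1 of the TIS CM or No CM libraries. In TIS CM against No CM it was -0.14 (SE 0.06, limma adjusted p = 0.352). The other 6, the centromeric histone CENPA, CENPE, CENPF and the microtubule-binding NDC80, NUF2 and SPC25, did not pass, with log2 fold changes down to -0.15 in Cont CM against No CM.

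Of 7 kinesin motors, KIF20A and KIF4A were lower in Cont CM than No CM (28.6%, and 8.56% of all tested genes). KIF20A, which acts in the central spindle during cytokinesis (chromosome 5, 138178719 to 138187715), stood at 38.9, 36.8 and 37.8 FPKM in TIS CM, 35.1, 38.8 and 34.1 FPKM in Cont CM, and 41.8, 45.1 and 42.5 FPKM in No CM. KIF4A, a chromosome-bound motor that also works at the spindle midzone, stood at 28.4, 27.2 and 27.3 FPKM in TIS CM, 26.4, 28.5 and 27.5 FPKM in Cont CM, and 30.3, 29.8 and 30.3 FPKM in No CM. For both, all 6 conditioned-medium libraries lay below all 3 No CM libraries, and TIS CM and Cont CM overlapped. The log2 fold changes in Cont CM against No CM were -0.26 for KIF20A (SE 0.05, limma adjusted p = 0.0131) and -0.13 for KIF4A (SE 0.04, limma adjusted p = 0.0405). KIF20A was called in 9 of 9 omissions of a library and KIF4A in 1 of 9, that of Cont CM replicate 2. For TIS CM against No CM they were -0.19 and -0.12 and did not pass (limma adjusted p = 0.17 and 0.193). KIF4B, a near-identical copy of KIF4A, averaged 0.203 FPKM. KIF11, KIF14, KIF18A, KIF23 and KIF2C did not pass, with log2 fold changes between -0.13 and -0.01 in Cont CM against No CM.

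Of 7 spindle proteins, TACC3 and GTSE1 were lower in Cont CM than No CM (28.6%, and 8.56% of all tested genes). TACC3, which strengthens spindle microtubule bundles, stood at 33.9, 33.6 and 34.6 FPKM in TIS CM, 33.3, 32.2 and 31.5 FPKM in Cont CM, and 35.0, 37.3 and 36.1 FPKM in No CM. GTSE1, a microtubule-binding protein of G2 and mitosis, stood at 22.2, 22.7 and 22.7 FPKM in TIS CM, 22.4, 22.0 and 21.4 FPKM in Cont CM, and 24.4, 24.6 and 24.8 FPKM in No CM. Both conditioned media lay below plain medium for both genes, and for GTSE1 they overlapped each other. Both genes had a log2 fold change of -0.16 in Cont CM against No CM, with limma adjusted p of 0.0194 for TACC3 and 0.0105 for GTSE1. TACC3 was called in 6 of 9 omissions and GTSE1 in 9 of 9. TPX2, an activator of AURKA, and NUSAP1, DLGAP5, HMMR and ASPM did not pass. Of the annotated exon bases of NUSAP1, 62.2% lie in AC087721.2 on the same strand, which averaged 0.0 FPKM, so the NUSAP1 level is uncertain. ASPM had the lowest log2 fold change of the members in TIS CM against Cont CM, -0.13 (95% interval -0.27 to 0.01).

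The cytokinesis members ECT2, ANLN and RACGAP1 did not pass in any comparison. ANLN, which organizes the contractile ring, was the 1 member whose TIS CM libraries all lay below its Cont CM libraries (1.89%, and 13.6% of all tested genes). ANLN stood at 91.8 to 96.8 FPKM in TIS CM and 98.7 to 106 FPKM in Cont CM (log2 fold change -0.10, limma adjusted p = 0.248). PRC1, a microtubule bundler of the central spindle, was the member not tested. It was listed at 0.215 to 0.23 FPKM in TIS CM, 0.157 to 0.329 FPKM in Cont CM, and 0.25 to 0.271 FPKM in No CM. Of its annotated exon bases, 57.6% lie in the readthrough gene AC068831.7 on the same strand, which averaged 0.435 FPKM, so its deposited level is uncertain.

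Of the 6 members grouped here with the anaphase-promoting complex and sister separation, UBE2C and CDCA3 were lower in Cont CM than No CM (33.3%, and 8.56% of all tested genes). UBE2C, the enzyme that starts ubiquitin chains for the complex (chromosome 20, 45812576 to 45816957), stood at 180.0, 173 and 170.0 FPKM in TIS CM, 146, 161 and 155 FPKM in Cont CM, and 171, 174 and 176 FPKM in No CM. Every TIS CM and No CM library lay above every Cont CM library. Its log2 fold change was -0.18 in Cont CM against No CM (SE 0.04, limma adjusted p = 0.0271) and 0.18 in TIS CM against Cont CM (SE 0.04, limma adjusted p = 0.0523), which did not pass. CDCA3, known in frog eggs as an adaptor that removes the CDK1 inhibitor WEE1, stood at 10.4, 10.2 and 10.1 FPKM in TIS CM, 8.32, 9.65 and 9.32 FPKM in Cont CM, and 10.6, 10.8 and 10.2 FPKM in No CM. Cont CM lay below both other groups, and the log2 fold changes were -0.20 in Cont CM against No CM (limma adjusted p = 0.0372) and 0.17 in TIS CM against Cont CM (limma adjusted p = 0.116). For Cont CM against No CM the call held in 5 of 9 omissions for UBE2C and in 2 of 9 for CDCA3.

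UBE2S, the enzyme that lengthens those chains, did not pass. It stood at 130.0, 121 and 131 FPKM in TIS CM, 122, 102 and 106 FPKM in Cont CM, and 122, 124 and 126 FPKM in No CM. Unlike most members, its Cont CM replicate 1 was the highest of the Cont CM libraries. In TIS CM against Cont CM the log2 fold change was 0.22 (SE 0.06, limma adjusted p = 0.0835), and 0.30 without Cont CM replicate 1 (limma adjusted p = 0.0121). Its copies UBE2SP1 and UBE2SP2 averaged 2.22 and 1.84 FPKM, so reads may be shared. The coactivator CDC20, PTTG1, which encodes securin, and ESPL1, which encodes separase, did not pass and had log2 fold changes of 0.14, 0.04 and 0.11 in TIS CM against Cont CM.

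The usual markers of proliferation did not pass in any comparison. MKI67, which encodes the Ki-67 protein that coats mitotic chromosomes (chromosome 10, 128096659 to 128126385), stood at 35.6, 38.0 and 35.0 FPKM in TIS CM, 32.6, 41.2 and 38.4 FPKM in Cont CM, and 42.0, 34.4 and 38.5 FPKM in No CM. TOP2A, which untangles sister DNA, stood at 121, 117 and 116 FPKM in TIS CM, 109, 127 and 118 FPKM in Cont CM, and 132, 122 and 127 FPKM in No CM. The Cont CM libraries spanned most of the range of both genes, and for TOP2A all TIS CM libraries lay just below all No CM libraries. For TIS CM against Cont CM the log2 fold changes were -0.04 for MKI67 (95% interval -0.25 to 0.17) and 0.00 for TOP2A (-0.12 to 0.13). In Cont CM against No CM they were -0.04 (-0.24 to 0.17) and -0.11 (-0.24 to 0.02). Both intervals reach the changes of called members such as PLK1 (-0.23) and stop short of that of CDC25B (-0.44).

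Neither transcription factor that activates these genes passed. FOXM1 stood at 45.8, 48.0 and 47.4 FPKM in TIS CM, 42.3, 44.5 and 45.5 FPKM in Cont CM, and 46.8, 47.4 and 47.4 FPKM in No CM. All Cont CM libraries lay below the other 6, with log2 fold changes of 0.09 in TIS CM against Cont CM (SE 0.04, limma adjusted p = 0.166) and -0.10 in Cont CM against No CM (SE 0.04, limma adjusted p = 0.104). Of the FOXM1 exon bases 15.9% overlap ITFG2 on the opposite strand. MYBL2, which encodes B-MYB, was the 1 member whose TIS CM libraries all lay above its No CM libraries. That is 1.89% of tested members, against 12.7% of all tested genes. MYBL2 stood at 44.5 to 48.0 FPKM in TIS CM and 39.9 to 43.1 FPKM in No CM (log2 fold change 0.16, limma adjusted p = 0.464).

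**Figure D4:**
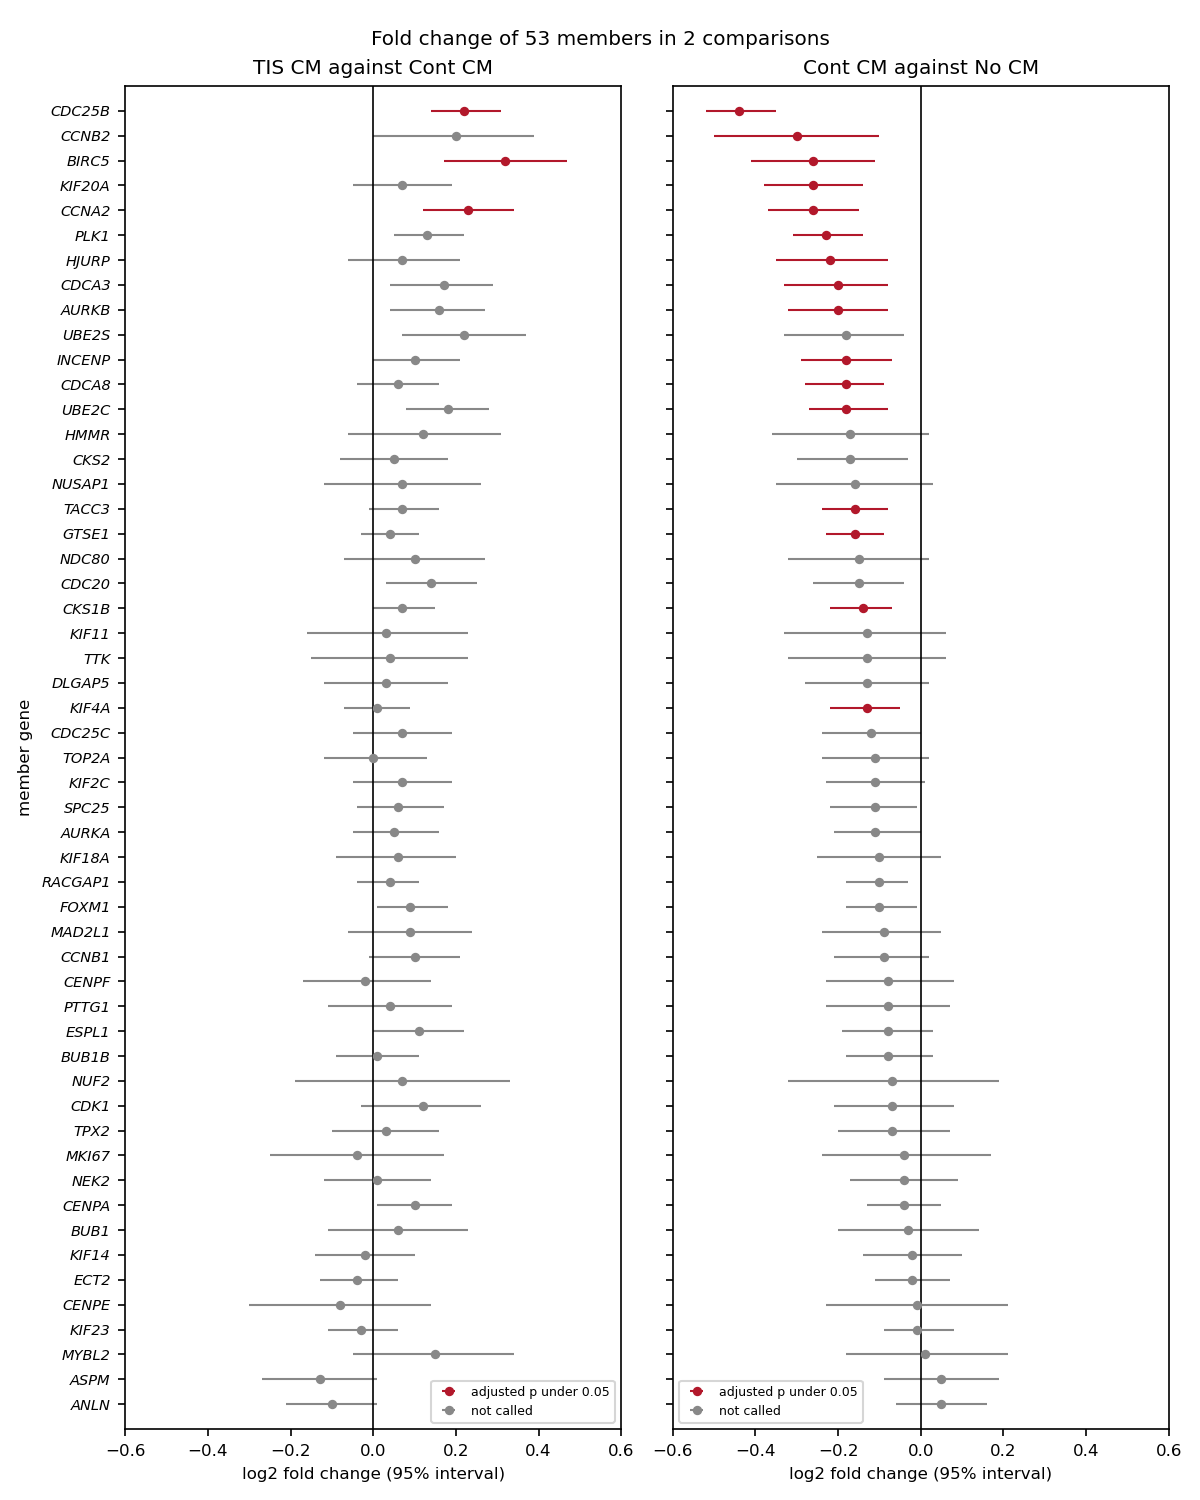
Log2 fold changes of the 53 tested members with 95% intervals for TIS CM against Cont CM (left) and Cont CM against No CM (right), sorted by the right panel, with called genes in red. The 2 panels share the Cont CM libraries. In the right panel 50 members lie below 0 and 16 are called, and in the left panel 45 lie above 0 and 3 are called.

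The 16 calls of Cont CM against No CM depended on single libraries to different degrees. Of the 16, 12, 10 and 10 were still called without TIS CM replicates 1, 2 and 3, 13, 12 and 9 without Cont CM replicates 1, 2 and 3, and 7, 8 and 5 without No CM replicates 1, 2 and 3. CDC25B, CCNA2, PLK1, KIF20A and GTSE1 were called in all 9 omissions. The 3 calls of TIS CM against Cont CM were lost more often. None of the 3 was called without TIS CM replicate 1, 2 or 3 or without Cont CM replicate 2, and CDC25B then had limma adjusted p of 0.0701, 0.087, 0.0748 and 0.0564. CCNA2 had 0.124, 0.119, 0.0711 and 0.0542 in these 4 omissions, and BIRC5 had 0.124, 0.101, 0.1 and 0.0771. CCNA2 also lost the call without Cont CM replicate 3, No CM replicate 1 and No CM replicate 3 (limma adjusted p of 0.0672, 0.0553 and 0.0554), and BIRC5 without No CM replicate 1 (limma adjusted p = 0.0591). The call of CDC25B in TIS CM against No CM was kept without Cont CM replicates 1 and 2 and lost in the other 7 omissions, with limma adjusted p between 0.0712 and 0.198.

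The members called lower in Cont CM were richer in G and C than the other members. The longest transcript had a median GC content of 51.3% in these 16, 41.8% in the 37 members not called and 48.5% over all tested genes. Across the 53 members, which are not independent replicates, log2 fold changes went with GC content at r = 0.52 in TIS CM against Cont CM (Spearman rho 0.52), over its 6 libraries. For Cont CM against No CM r was -0.42 (rho -0.44). With log2 gene length r was -0.45 in TIS CM against Cont CM (rho -0.47) and 0.33 in Cont CM against No CM (rho 0.37). Cont CM replicate 2, where GC content and length took up 17.7% of the variance of deviations, entered both comparisons. After the part of each library's deviations that followed GC content and length was subtracted, 19 members were lower in Cont CM than No CM, of which 12 were among the 16, while 1131 of all genes were lower, against 1191 before. CCNB1, TOP2A, BUB1B, CKS2, DLGAP5, RACGAP1 and SPC25 were then added. AURKB, BIRC5, INCENP and TACC3 lost the call. The members' median was then -0.15 in Cont CM against No CM, with 52 of 53 below 0, and 0.08 in TIS CM against Cont CM, with 49 of 53 above 0 and CCNA2 alone called.

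A list of 61 other G2/M and mitotic genes, all tested, was measured beside the members. In Cont CM against No CM 13 were lower (21.3%, and 8.56% of all tested genes), 0 higher (7.77% of all) and 48 did not pass, with 3 higher at an unadjusted p under 0.05 and 0 called higher by voom. SAPCD2, which acts in spindle orientation, fell by 0.54 on the log2 scale (SE 0.05, limma adjusted p = 0.000391). Lamin B1 (LMNB1), part of the nuclear lamina, fell by 0.42 (SE 0.06, limma adjusted p = 0.00273), and PSRC1, a spindle protein, by 0.40 (SE 0.06, limma adjusted p = 0.00295). In TIS CM against Cont CM 4 of 61 were higher (6.56%, and 2.9% of all tested genes), 0 lower (2 at an unadjusted p under 0.05 and 0 by voom) and 57 did not pass, with SAPCD2, PSRC1 and TROAP higher by 0.44, 0.25 and 0.22 (limma adjusted p of 0.00775, 0.0478 and 0.0173). For TIS CM against No CM limma and voom called 0 of 61, and 7 were lower and 0 higher at an unadjusted p under 0.05. The list's medians were 0.04, -0.04 and -0.09 in TIS CM against Cont CM, TIS CM against No CM and Cont CM against No CM. Without Cont CM replicate 1 they were -0.02, -0.04 and -0.02. Of the 61, 7 were then higher in TIS CM than Cont CM (11.5%, and 4.85% of all tested genes), and 15 were lower and 1 higher in Cont CM than No CM (24.6% and 1.64%, and 10.3% and 9.57% of all). In that fit 1 of 61 was lower in TIS CM than No CM (1.64%, and 1.22% of all tested genes).

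Genes of the G1/S step and of DNA replication, which act earlier in the cycle, also had lower calls in Cont CM. Of 37 tested, 8 were lower in Cont CM than No CM (21.6%, and 8.56% of all tested genes), 0 higher (7.77% of all) and 29 did not pass. None was higher at an unadjusted p under 0.05 or by voom. The factor E2F2 fell by 0.50 on the log2 scale (SE 0.09, limma adjusted p = 0.00662), thymidine kinase TK1 by 0.30 (SE 0.05, limma adjusted p = 0.00416), and the repressor E2F8 by 0.27 (SE 0.04, limma adjusted p = 0.00495). TK1 was also the 1 gene of this list higher in TIS CM than Cont CM (2.7%, and 2.9% of all tested genes), at 103 to 109 FPKM in TIS CM and 83.3 to 91.6 FPKM in Cont CM (log2 fold change 0.30, limma adjusted p = 0.018). In TIS CM against No CM 0 of 37 were called by limma or voom, and 0 had an unadjusted p under 0.05. In 62.2% of these genes, and 21.5% of all tested genes, Cont CM replicate 1 was the lowest library.  Without it the median in Cont CM against No CM was -0.03, against -0.10 with it, and 8 were called lower (21.6%, and 10.3% of all tested genes).

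Of 22 listed genes of cell cycle arrest and the DREAM complex 20 were tested. In Cont CM against No CM 4 fell (20.0%, and 8.56% of all tested genes), 2 rose (10.0%, and 7.77% of all) and 14 did not pass. The CDK inhibitor genes CDKN1C, CDKN2C and CDKN1B fell by 0.67, 0.65 and 0.31 on the log2 scale (limma adjusted p of 0.00223, 0.000295 and 0.00196). The stress gene GADD45A and E2F5, a DREAM subunit, rose by 0.40 and 0.27 (limma adjusted p of 0.0137 and 0.0292). CDKN2C was higher in TIS CM than Cont CM, at 16.0 to 16.6 FPKM in TIS CM and 10.8 to 13.1 FPKM in Cont CM (log2 fold change 0.44, limma adjusted p = 0.0113), and 0 were lower, with 3 lower at an unadjusted p under 0.05 and 1 called lower by voom. CDKN1A, the p53 target that encodes p21, averaged 35.1 ± 0.681 FPKM in TIS CM, 36.2 ± 5.64 FPKM in Cont CM and 30.4 ± 2.08 FPKM in No CM (SD, n = 3 each) and did not pass in any comparison. Between TIS CM and No CM limma and voom called 0 of 20, with 1 higher and 4 lower at an unadjusted p under 0.05. Without Cont CM replicate 1, 4 were higher in TIS CM than Cont CM (20.0%, and 4.85% of all tested genes) and 2 lower in TIS CM than No CM (10.0%, and 1.22% of all), and in Cont CM against No CM 4 were higher and 5 lower of 20 (9.57% and 10.3% of all tested genes).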

How the data were processed

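Per the labels' protocols, poly-A RNA was captured, fragmented and primed with random hexamers. Build hg38 and the tools featureCounts 1.5.0-p3, HISAT2 2.0.5, DESeq2 1.20.0 and fastp are named, without roles, in the submitters' processing notes. The authors deposited FPKM per gene. Identifiers matched GENCODE 29 (Ensembl 94) for all 58735 genes, and 29086 were listed at 0 in every library. Multiplied by gene length and divided by 1 constant per library, 100% of values came within 0.01 of whole fragments, which were used as recovered counts. On them voom called 5 of 53 members higher in TIS CM than Cont CM, beside 625 of all 13912 tested genes. It called 1 member lower in TIS CM than No CM, beside 140 of all tested genes. In Cont CM against No CM it called 18 members lower, beside 1402 of all tested genes. FPKM depend on the authors' gene lengths and scaling.

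The 13912 genes that averaged 0.5 FPKM or more were put on log2(FPKM + 0.5), which understates changes of low genes, and fitted with limma 3.58.1 (R 4.3.3) over all 9 libraries, with group means and a variance trend. Benjamini-Hochberg adjusted p under 0.05 was a call. The fit was tested on simulated data whose changes were all wider than any member's, with no deviating library. That test does not cover changes as small as those of the members. Each tested member had at least 432 fragments in every library. Alternatives were pseudocount, filter, scaling, voom, a fit of 2 groups, a replicate block, single libraries left out, and GC and length trends removed. The members and lists were chosen with earlier results of these data known. Values per library are given for members called in any comparison, the 6 with the widest change in TIS CM against Cont CM, and CCNB1, CDK1, PLK1, MKI67, TOP2A and FOXM1, and for members outside this rule that are singled out after their values were seen. From each other list at most 3 called genes per direction are named. Promoters are from RefSeq. Figures were drawn with matplotlib 3.10.9.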

Additional observations from a re-analysis of the deposited data

How the results depend on the processing

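The members' medians moved by less than 0.0535 under all alternatives tried. That limit is the SD of the members' library medians within groups, pooled over the groups. It is about as large as the medians of TIS CM against Cont CM (0.07) and TIS CM against No CM (-0.05), so a move within it can matter. Without Cont CM replicate 1 the first of these went from 0.07 to 0.03. The counts moved more. Members called higher in TIS CM than Cont CM (3) numbered 1 with no filter, 5 by voom, 0 with only the 2 groups in the fit, 0 with the replicate block and 1 with the GC content and length trend removed, which was chosen after seeing the data, and 0 to 4 with 1 library left out. All genes called there (623) numbered 207 with no filter, 1085 by voom, 33 with only the 2 groups, 126 with the block, 173 with the trend removed and 11 to 1084 with 1 library left out. Members lower in TIS CM than No CM (1) numbered 0 with no filter, 0 with equal sums of fragments, 0 with the block and 0 to 1 with 1 library left out, and all genes called (119) numbered 46, by voom 245, with only the 2 groups 331, with the block 4 and 9 to 365 with 1 library left out. Members lower in Cont CM than No CM (16) numbered 8 with no filter, 6 with only the 2 groups, 8 with the block and 5 to 15 with 1 library left out, and all genes called (2272) numbered 1242 with only the 2 groups, 1461 with the block and 1075 to 2770 with 1 library left out. MKI67 in TIS CM against Cont CM (-0.04) was 0.01 with the trend removed and -0.13 to 0.03 with 1 library left out, and in Cont CM against No CM -0.11 to 0.06. TOP2A in TIS CM against Cont CM (0.00) was -0.07 with quantile normalization and -0.05 to 0.06 with 1 library left out. The cause of these shifts was not tested. The correlation of same-numbered libraries' deviations lay between -0.187 and 0.0838, never over 0.1, and libraries did not all correlate best with their own number, so the numbers are not taken as pairs. Single members' differences of about 0.1 on the log2 scale are within the intervals of most members that did not pass.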
